A study of Gallus gallus with 8 samples.

Results

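PHOSPHO1, KRT7, PON1, CRYBB3, ARRDC2, FAM173B, BBOF1 and IQUB are 8 genes whose signal was over 60-fold higher in chicken whole blood than in peripheral blood mononuclear cells (PBMC), although none of them belongs to the usual lists of red cell genes. They were taken from 7097 genes named on the array, of which 5560 were tested, and they are covered by 18 of its 60539 probes. The genes were selected on the measured difference between the groups on these same arrays, so their levels are given as a description and without a test. Whole blood and PBMC came from the same 4 male broiler chickens, aged 9 weeks and kept on a conventional diet. PBMC were separated from the blood on a Ficoll density gradient, in which lymphocytes and monocytes stay at the interface and denser cells pass through. Each sample was hybridised to 1 single-colour array, 4 per group, and replicate numbers identify the birds.

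In birds the red cells and thrombocytes are nucleated, and RNA of whole blood holds transcripts of all these cells and of leukocytes. The 8 genes have little in common in what they are known to do. PHOSPHO1, PON1 and FAM173B encode enzymes, KRT7 and CRYBB3 encode structural proteins best known from epithelia and the lens, ARRDC2 encodes an adaptor for ubiquitin ligases, and BBOF1 and IQUB encode proteins of cilia and flagella.

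Levels are log2 of the background-subtracted signal minus log2 of its array's 75th percentile, which lay between 663 and 846 signal units. They are read within a probe, since probes differ in how strongly they bind. Differences are PBMC minus whole blood, so a negative value means more signal in whole blood. Of the 34044 features tested, each a named gene or an unnamed probe, 79.1% differed, 39.3% were higher in whole blood and 39.8% higher in PBMC (limma, Benjamini-Hochberg adjusted p under 0.05), and in 36.9% every whole blood array lay above every PBMC array, with the reverse in 36.3%. All 8 genes passed that test and had no overlap, which follows from how they were chosen. Only 0.473% of the features were over 60-fold higher in whole blood.

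Markers of blood cell types gave the setting. All 14 tested red cell markers were higher in whole blood, at a median of -3.41, and their summed level (in multiples of the 75th percentile) ran from 3392 to 3682 in whole blood and from 405 to 972 in PBMC. Of 5 heterophil markers, 2 were higher in whole blood and none was higher in PBMC, with sums of 17.2 to 26.8 and 5.72 to 15.4. All 5 T cell, 3 B cell, 4 monocyte and 3 thrombocyte markers were higher in PBMC. No marker was below background on all arrays of a group. The part of red cell and heterophil RNA in the differences of the 8 genes was not tested. In bulk samples, fewer cells of a type and less RNA per cell cannot be told apart.

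Of the 24 named genes over 60-fold higher in whole blood, 11 had no PBMC array well above background, so that their ratio is only a bound. The other 13 comprise the 8 genes described here and SLC22A23, SLC25A37, MMP9, IFI27L2 and EPAS1, of which SLC25A37 is also on the red cell list and MMP9 on the heterophil list. Among the 11, the bounds of WNK4, HMGA2, CRABP1, SEMA3D, MATN3 and PXDNL themselves lay over 60-fold. They ran from at least 604-fold for WNK4 to at least 67.1-fold for PXDNL. These bounds hold for the main background correction only. With normexp WNK4 differed by -6.43 and was the only 1 of these genes over 60-fold. The others ran from -4.42 for HMGA2 to -3.28 for PXDNL. Just inside 60-fold were IFI27L2 at 63.0-fold and the hypoxia factor EPAS1 at 62.2-fold. Just outside were the transferrin receptor TFRC at 59.2-fold and RBP at 59.2-fold. The fitted differences of the neurofilament NEFL (-5.95) and the potassium channel KCNJ4 (-5.88) also lay next to the threshold, but no PBMC array measured them well above background. Their bounds of at least 33.0-fold and at least 23.1-fold do not show on which side of 60-fold they lie. With normexp the differences of EPAS1 and RBP, -5.96 and -5.89, became -3.59 and -4.71, and that of KCNJ4 became -2.03 (-2.65 in the authors' deposited values).

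PHOSPHO1 encodes a phosphatase that releases choline and phosphate from phosphocholine. It is best known from the mineralisation of bone and cartilage, and in mice it also takes part in the last steps of red cell formation. Its 1 probe (A_87_P037528) stood at 2.62, 2.43, 2.96 and 2.69 in the whole blood of birds 1 to 4, and at -4.91, -4.26, -4.71 and -4.42 in their PBMC. All 4 whole blood arrays were close together and far above the PBMC arrays, with no overlap. The group levels were 2.67 ± 0.22 (SD, n = 4) and -4.58 ± 0.29, a difference of -7.25 ± 0.19 (SE) or 152-fold. In signal units this was 3938 to 5696 in whole blood against 28.2 to 39.6 in PBMC, where the spot was 2.04 to 2.49 times as bright as its local background. PHOSPHO1 was well above background on all 8 arrays, but its PBMC level lay near the bottom of what the arrays measured. With normexp, another background correction, the ratio was 48.0-fold, and in the authors' deposited values, which are not background-corrected, it was 68.2-fold.

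PON1 encodes paraoxonase, which in mammals circulates on high-density lipoprotein and hydrolyses lactones and organophosphates. The reference lists PON2 as a synonym of this chicken gene, and 2 of its 3 probes carry the name PON2. The role given for mammalian PON1 may therefore not apply to it. The probe that stands for the gene measured 6.79, 6.09, 7.09 and 6.27 in whole blood and 0.32, -0.999, 0.20 and 1.30 in PBMC of birds 1 to 4. Whole blood levels varied 2.00-fold between birds and PBMC levels 4.91-fold, with bird 2 lowest in both and bird 4 highest in PBMC only. The group levels were 6.56 ± 0.46 and 0.21 ± 0.94, a difference of -6.36 ± 0.44 (81.9-fold). The difference within birds was smallest in bird 4, at -4.97, and largest in bird 2, at -7.09. The other 2 probes differed by -6.75 and -5.25. All 8 arrays measured the 3 probes well above background, and the 3 put the birds' whole blood in the order 3, 1, 4, 2.

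FAM173B, named ATPSCKMT in humans, encodes a methyltransferase of mitochondria that modifies a lysine of the c subunit of ATP synthase. Its 1 probe stood at 3.01, 2.67, 2.64 and 2.53 in whole blood and at -3.48, -3.76, -3.32 and -4.29 in PBMC. The groups did not overlap, at 2.71 ± 0.21 and -3.71 ± 0.42. Whole blood varied 1.39-fold between birds and PBMC 1.95-fold. The difference was -6.43 ± 0.22 (86.0-fold), with 37.7-fold by normexp and 51.0-fold in the authors' deposited values. Within birds it ran from -5.96 in bird 3 to -6.82 in bird 4.

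**Figure D1:**
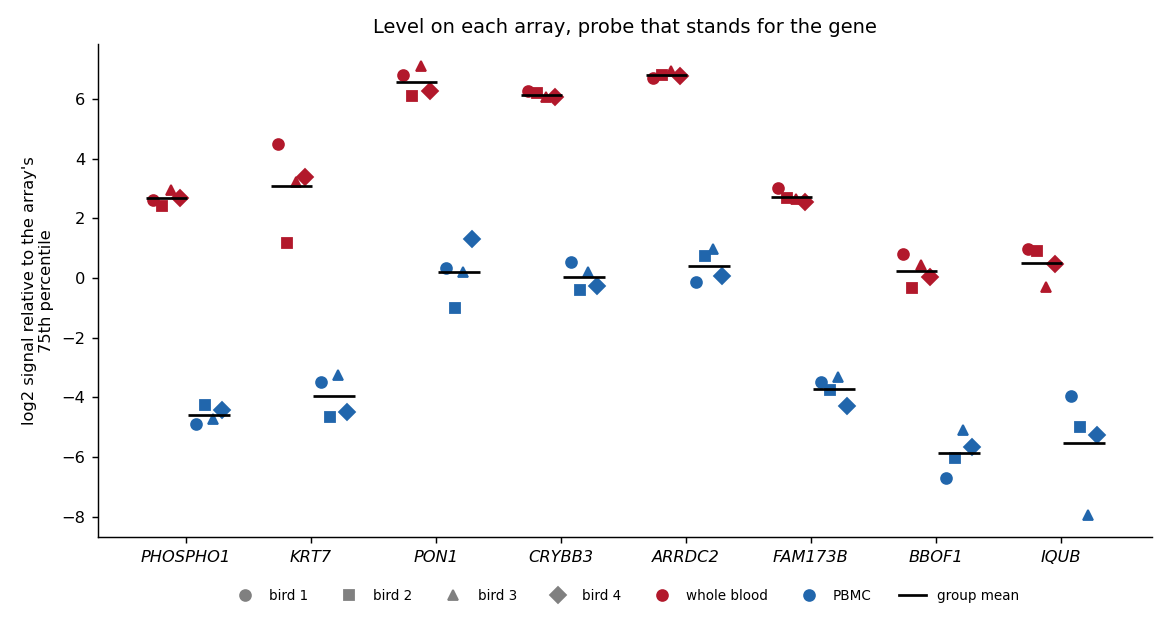
Level of the probe that stands for each of the 8 genes on each array, as log2 signal relative to the array's 75th percentile (vertical axis). Red symbols are whole blood, blue symbols PBMC, symbol shapes mark the 4 birds and black lines the group means. No gene has overlapping groups, whole blood of bird 2 lies 3.31 below bird 1 for KRT7, and PBMC of bird 3 lies lowest for IQUB.

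KRT7 encodes keratin 7, a type II keratin that builds the filaments of simple epithelia. The probe with the highest signal measured 4.48, 1.17, 3.23 and 3.40 in whole blood of birds 1 to 4 and -3.48, -4.66, -3.23 and -4.48 in PBMC. Groups did not overlap, but whole blood spread widely: the signal was 17255 units in bird 1 and 1643 in bird 2, a 9.93-fold range after scaling. The scanner software gave an error of 10% for each of these spots. The whole blood SD of 1.38 was reached or passed by 1.29% of all tested features, against a median SD of 0.28.

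The order of the birds in whole blood was the same on all 7 KRT7 probes, with bird 1 highest, then bird 4, bird 3 and bird 2. Bird 1 exceeded bird 2 by 3.31 to 3.64 across the 7 probes, which were hybridised with the same RNA and are not separate replicates of the bird. Of the 34044 features, 54 (0.159%) had an excess of bird 1 over bird 2 as large as that of the KRT7 probe with the highest signal. In either direction, 93 (0.273%) had a difference as large. These birds were compared because they were the extremes of KRT7. In PBMC the probes did not share an order, and only the brightest was well above background on all 4 arrays there. The summed red cell markers in whole blood, which are mostly globin signal, stood at 3468, 3392, 3682 and 3559 for birds 1 to 4. The summed B cell markers there stood at 7.08, 3.68, 4.01 and 5.02, in the same order of birds as KRT7. The brightest B cell marker, CD79B (2.79, 1.85, 1.97 and 2.29), makes up most of that sum, so its same order is not a separate match. PAX5 (-2.49, -3.68, -3.48 and -3.61) and JCHAIN (-7.11, -7.24, -5.93 and -5.18) had other orders. Unlike KRT7, the B cell sums were higher in PBMC, at 21.2 to 42.8. The part of either cell type in the spread of KRT7 was not tested.

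The KRT7 difference was -7.03 ± 0.65 (SE, 131-fold) by the probe with the highest signal. It was -7.67 without the whole blood array of bird 2, -5.86 with normexp, -6.27 in the authors' deposited values and -6.29 with the mean of the 7 probes. Among the other 6 probes, 3 were detected on at least 1 PBMC array and differed by -5.15, -7.14 and -7.21. The remaining 3 had no PBMC array well above background, and whole blood exceeded PBMC at least 106.8-fold, 15.1-fold and 13.4-fold. These bounds hold for the main background correction only: with normexp the differences of the 3 probes were -3.99, -1.76 and -1.46. Such a bound sets the whole blood mean against, for each PBMC array, the lowest signal that was well above background there, or the probe's signal where that was higher.

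**Figure D2:**
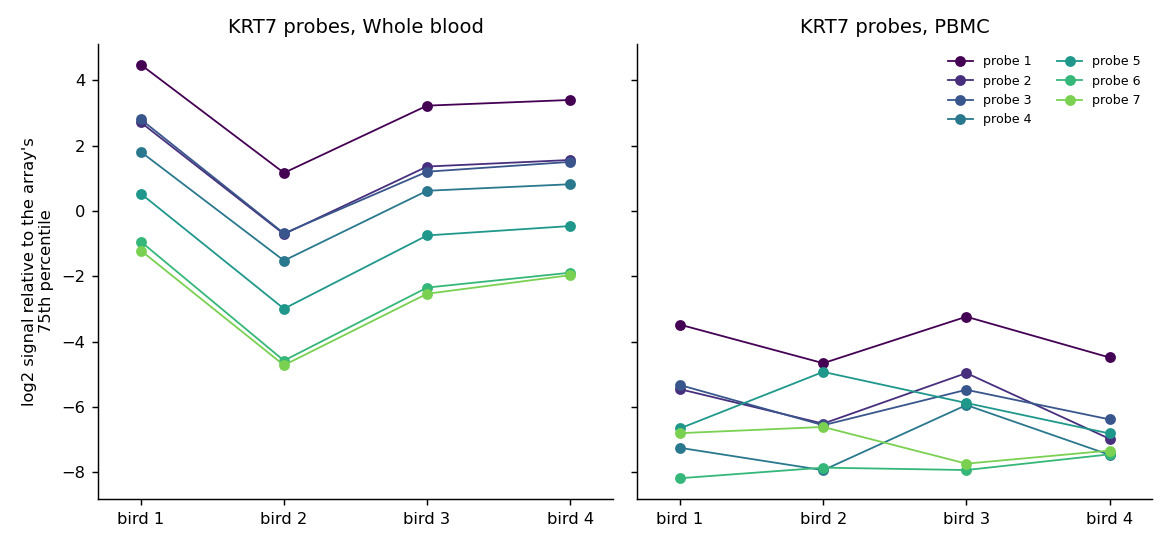
Level of the 7 KRT7 probes by bird (horizontal axis) in whole blood (left) and PBMC (right), as log2 signal relative to the array's 75th percentile. Lines join the values of 1 probe, and probes are numbered by their mean whole blood level. All 7 lines dip at bird 2 in whole blood, while in PBMC, where 3 of the probes had no array well above background, they share no order.

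CRYBB3 encodes a beta-crystallin, a structural protein of the eye lens. The probe that stands for it measured 6.25, 6.18, 6.06 and 6.08 in whole blood and 0.54, -0.39, 0.21 and -0.27 in PBMC. Whole blood of the 4 birds lay within 1.14-fold, and an SD of 0.089 was reached or passed by 94.6% of all features. The group levels were 6.14 ± 0.09 and 0.02 ± 0.43, a difference of -6.12 ± 0.21 (69.7-fold). The other probe differed by -6.85. All 8 arrays measured both well above background, and both put the birds' whole blood in the same order, 1, 2, 4, 3.

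ARRDC2 belongs to the alpha-arrestins, adaptors that bring ubiquitin ligases of the NEDD4 family to membrane proteins. Its 1 probe stood at 6.69, 6.80, 6.95 and 6.78 in whole blood and at -0.12, 0.72, 0.96 and 0.07 in PBMC. Whole blood was again narrow, within 1.20-fold, and PBMC varied 2.12-fold. In signal units these were 72881 to 90513 in whole blood and 779 to 1479 in PBMC, so that PBMC spots were 24.1 to 45.6 times as bright as their local background. The difference was -6.40 ± 0.24 (84.2-fold), and it was 79.8-fold with normexp. In PBMC the order of the birds was 3, 2, 4, 1, which was also the order of the summed heterophil markers there, at 5.72, 9.06, 15.4 and 6.86 for birds 1 to 4. Of the single heterophil markers only S100A12 (-2.44, 1.12, 2.32 and -0.09) had that order in PBMC. MMP9, CATH2, CSF3R and LYZ had other orders. In whole blood the orders differed: ARRDC2 was again 3, 2, 4, 1, and the heterophil sum, at 17.2, 19.3, 26.6 and 26.8 for birds 1 to 4, was 4, 3, 2, 1. The part of heterophil RNA in this was not tested. Other genes also matched a marker sum in the order of birds. In whole blood these were PHOSPHO1 with the red cell sum and KRT7 with the B cell sum. In PBMC they were CRYBB3 with the B cell sum and BBOF1 with the monocyte sum. For BBOF1 only PBMC of bird 3 was well above background, and its other probe had another order. With 4 birds such orders can coincide, and no match was tested.

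BBOF1, called C14orf45 in its probe names, encodes a protein of the basal bodies that helps to align motile cilia in frogs. The probe that stands for it measured 0.80, -0.32, 0.45 and 0.02 in whole blood and -6.69, -6.04, -5.09 and -5.66 in PBMC. Only PBMC of bird 3 was well above background, so the PBMC mean of -5.87 ± 0.67 is mostly a reading of dim spots. The difference was -6.11 ± 0.36 (69.0-fold), against 12.4-fold with normexp and 17.6-fold in the authors' deposited values. The other probe had no PBMC array well above background, and whole blood exceeded PBMC at least 60.98-fold on the main scale. With normexp its difference was -3.38, so that the bound holds for the main background correction only.

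IQUB encodes a protein with an IQ motif and a ubiquitin-like domain, which in mice belongs to the radial spokes of the sperm flagellum. Its 1 probe measured 0.97, 0.92, -0.32 and 0.47 in whole blood and -3.96, -4.98, -7.94 and -5.25 in PBMC. PBMC spread 15.8-fold, and only birds 1 and 2 were well above background there. The scanner software put the error of the PBMC spots at 11.3% to 101% of their signal. The PBMC SD of 1.70 was reached or passed by 0.496% of all features. The difference was -6.04 ± 0.75 (66.01-fold), -5.24 (37.8-fold) without the PBMC array of bird 3, 13.1-fold with normexp and 18.5-fold in the authors' deposited values.

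For 6 of the 8 genes, the probe that stands for the gene was measured well above background by all 8 arrays, and for all 18 probes by the 4 whole blood arrays. The lowest whole blood value of every probe lay above its highest PBMC value, by 1.89 or more, as did that of 36.9% of all tested features. For the 8 genes this follows from how they were chosen. The gap of 1.89 belongs to a KRT7 probe with no PBMC array well above background. Which genes exceeded 60-fold depended on the processing and on single birds. With normexp, PON1, CRYBB3 and ARRDC2 were over 60-fold, and in the authors' deposited values PHOSPHO1 and KRT7 were too. CRYBB3 was 52.6-fold with cyclic loess and 55.2-fold in slide row 2 alone. BBOF1 was 52.0-fold in slide row 1 alone, 50.1-fold without bird 1 and 57.1-fold without the PBMC array of bird 1. IQUB was 56.1-fold in slide row 1 alone, 45.8-fold without bird 3 and 59.4-fold without the whole blood array of bird 1. BBOF1 and IQUB, with PBMC signals of 8.19 to 22.3 and 3.08 to 54.2 units, moved to 12.4-fold and 13.1-fold with normexp.

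**Figure D3:**
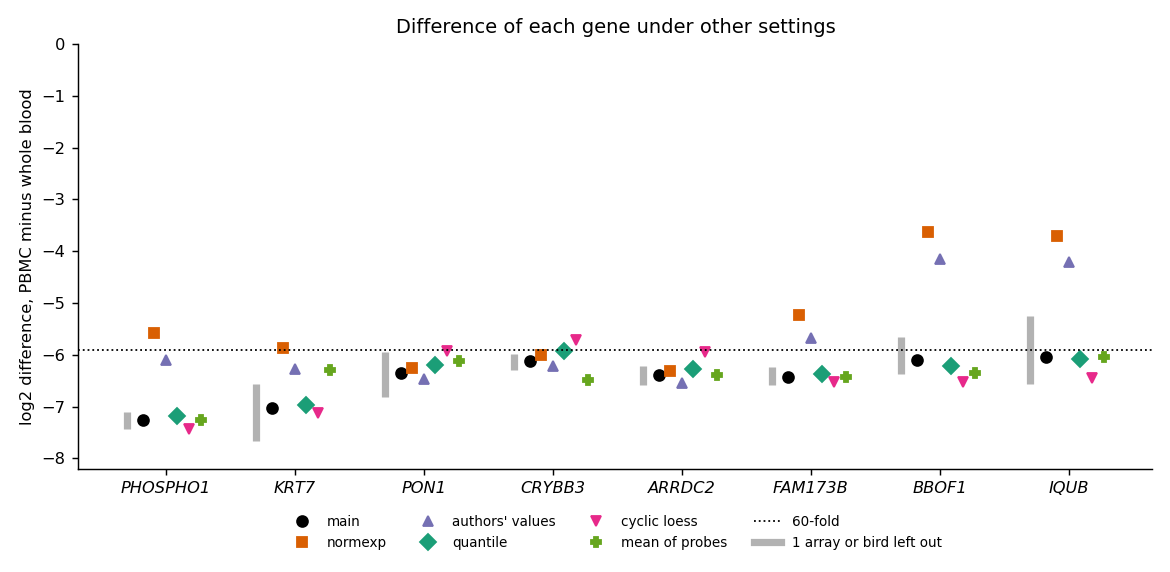
Log2 difference, PBMC minus whole blood, of each gene under the main setting and other settings (symbols). Grey bars span the values with 1 array or 1 bird left out, and the dotted line marks 60-fold. With normexp PON1, CRYBB3 and ARRDC2 stay at -6.26, -6.01 and -6.32, while BBOF1 and IQUB shrink to -3.63 and -3.71 with normexp.

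Red cell references gave a scale for these sizes. TFRC, which takes up iron, went from 3.63 ± 0.15 in whole blood to -2.25 ± 0.20 in PBMC, a difference of -5.89 ± 0.15 (adjusted p = 6.95e-08). HBAD, an adult alpha-type globin, measured 9.23, 9.37, 9.57 and 9.26 in whole blood and 6.45, 6.97, 5.49 and 7.56 in PBMC, a difference of -2.74 ± 0.38 (adjusted p = 1.35e-04; -1.90 with cyclic loess, and -2.05 and -3.43 in slide rows 1 and 2 alone). PBMC of bird 3 had the lowest level of HBAD and the lowest sum of red cell markers. The 8 genes did not share 1 order of birds in PBMC. There KRT7, ARRDC2, FAM173B and BBOF1 were highest in bird 3 by the probe that stands for the gene. PHOSPHO1 was highest in bird 2, PON1 in bird 4, and CRYBB3 and IQUB in bird 1. The other BBOF1 probe was highest in bird 2, and the KRT7 probes differed in order. The share of all features highest in each bird was not counted, and a relation to the red cell markers was not tested.

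Among genes outside the 8, those with the most similar profile were found by the root mean square distance between levels on the 8 arrays, each centred on its mean. The difference between the groups, on which the 8 were chosen, makes up most of such a profile. Nearness therefore mostly means a difference of similar size and does not show a shared cell of origin. CRYBB3 lay 0.28 from LMLN, a metallopeptidase gene, and 0.38 from TFRC. ARRDC2 lay 0.27 from SLC22A23 and 0.27 from DND1, which is known from germ cells, and FAM173B lay 0.33 from EPAS1 and 0.34 from DND1. PHOSPHO1 lay 0.38 from PXDNL and 0.42 from SLC22A23, and BBOF1 0.41 from DND1 and 0.49 from RBP. PON1 had LMLN at 0.56 and the mitochondrial iron carrier SLC25A37 at 0.67. KRT7 and IQUB had no gene as near: the closest were DND1 (0.83) and LMLN (0.85) for KRT7, and XK, a red cell membrane protein (0.86), and ZFAND2A (0.88) for IQUB. LMLN, DND1, PXDNL and XK had no PBMC array well above background, so their profiles there follow dim spots. With normexp the differences of DND1, LMLN, PXDNL, XK, SLC22A23 and SLC25A37 shrank to between -5.14 and -2.49, and that of XK was -5.66 without bird 3. Within the 8, the closest pair was CRYBB3 and FAM173B, at 0.27.

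On each list of related genes, differences spread in both directions. For PHOSPHO1, 18 genes of choline and phospholipid metabolism were tested: 6 were higher in whole blood, 10 were higher in PBMC and 2 did not pass. Their median difference was 0.88, against 0.0097 over all features. The largest differences toward whole blood were those of the rate-setting enzymes of phosphatidylcholine synthesis, PCYT1B (-2.30 ± 0.24, adjusted p = 1.93e-05; -0.71 with normexp and -0.98 in the authors' deposited values) and PCYT1A (-2.16 ± 0.24, adjusted p = 2.87e-05). The largest differences toward PBMC were those of the ethanolamine kinase ETNK1 (2.72 ± 0.14, adjusted p = 5.17e-07; 2.03 with normexp and 2.07 in the authors' deposited values) and the phospholipase family member PLD4 (2.66 ± 0.66, adjusted p = 0.00456).

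For KRT7, 14 genes of keratins and other intermediate filaments were tested, with 6 higher in whole blood, 3 higher in PBMC and 5 not passing. Their median difference was -0.49, but -0.27 with normexp, -0.76 with cyclic loess and -0.20 with detection required on all 8 arrays. NEFL, counted among the 6, had no PBMC array well above background, so its excess in whole blood is a bound of at least 33.0-fold. Its fitted difference of -5.95 ± 0.61 follows dim PBMC spots, and no p is given for it. It was -2.48 with normexp, -3.14 in the authors' deposited values and -5.16 when its probes were averaged. In slide rows 1 and 2 alone it was -4.48 and -7.41, and without bird 2 it was -6.70. The muscle filament protein SYNM followed at -2.80 ± 0.24 (adjusted p = 5.77e-06). Of the other keratins tested, KRT10 was higher in PBMC (2.47 ± 0.26, adjusted p = 2.25e-05; 1.36 with normexp, 1.45 in the authors' deposited values, 1.55 when its probes were averaged). KRT5, KRT8 and KRT75 differed by -0.48, 0.06 and 0.10 and did not pass, though KRT5 passed with cyclic loess (-0.94) and with the bird as a block (-0.48). LMNB1, a lamin of the nuclear envelope, was higher in PBMC (2.15 ± 0.28, adjusted p = 7.93e-05).

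Of 13 crystallin genes, 5 were higher in whole blood, 5 were higher in PBMC and 3 did not pass. Under the main setting, the 5 higher in whole blood were all beta- or gamma-crystallins. The 5 higher in PBMC were CRYL1, CRYZ, CRYAB, ASL and ASL1. With quantile or cyclic loess scaling 7 were higher in whole blood, more than the beta- and gamma-crystallins tested, so this split did not hold there. CRYGN, a crystallin of the gamma family, went from 5.80 ± 0.34 in whole blood to 0.55 ± 0.31 in PBMC, a difference of -5.25 ± 0.22 (38.0-fold, adjusted p = 2.48e-07), and CRYGS differed by -2.60 ± 0.16 (adjusted p = 9.87e-07). The beta-crystallins CRYBB2, CRYBA4 and CRYBA2 were higher in whole blood by small differences, -0.79, -0.69 and -0.65, of which CRYBA2 no longer passed with averaged probes (-0.83), in slide row 2 alone (-0.41), without bird 2 (-0.69) or without the whole blood array of bird 3 (-0.59). The related CRYBA1 did not pass (0.22). The largest differences toward PBMC on the list were those of CRYL1 (2.43 ± 0.20, adjusted p = 4.29e-06) and ASL1 (2.38 ± 0.33, adjusted p = 1.32e-04).

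For ARRDC2, 9 arrestins and ubiquitin ligases of that pathway were tested, with 4 higher in whole blood and 4 higher in PBMC. SAG, the arrestin of retinal rods, was higher in whole blood (-3.92 ± 0.19, adjusted p = 4.50e-07; -2.68 with normexp and -3.08 in the authors' deposited values), as was the ligase SMURF1 (-1.75 ± 0.25, adjusted p = 1.58e-04; -0.48 and -0.71 there). The sister gene ARRDC3 went the other way, from -0.88 in whole blood to 1.30 in PBMC (2.18 ± 0.18, adjusted p = 4.18e-06), and ARRDC1 did not pass (0.35), though it did with quantile (0.75) and cyclic loess scaling (0.68), without the PBMC array of bird 1 (0.45) and without the whole blood array of bird 4 (0.43). NDFIP2, an activator of these ligases, was higher in PBMC (1.87 ± 0.15, adjusted p = 4.29e-06).

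Of 9 genes of paraoxonases and lipoprotein antioxidants, none of them another paraoxonase, 1 was higher in whole blood and 5 were higher in PBMC. Their median difference was 0.67, but 0.15 in the authors' deposited values, 0.24 with normexp, 0.20 with cyclic loess, and 1.14 and 0.20 in slide rows 1 and 2 alone. The lipocalin APOD was the former (-2.89 ± 0.21, adjusted p = 2.34e-06; -1.93 with normexp and -2.24 in the authors' deposited values). The clusterin gene CLU (2.53 ± 0.54, adjusted p = 0.00205) and the lipoprotein-bound phospholipase PLA2G7 (2.18 ± 0.18, adjusted p = 5.33e-06) had the largest differences toward PBMC. For FAM173B, 5 genes of ATP synthase and its regulation were tested and no other methyltransferase of mitochondria. The subunit gene ATP5I was higher in PBMC (2.71 ± 0.17, adjusted p = 1.26e-06) and ATP5J2 in whole blood (-1.71 ± 0.32, adjusted p = 8.49e-04; -0.80 with normexp and -1.08 in the authors' deposited values). The inhibitor ATPIF1 was higher in whole blood (-0.52 ± 0.16, adjusted p = 0.0131). It no longer passed with quantile normalization (-0.066) and cyclic loess (0.13, the opposite sign), in slide rows 1 and 2 alone (-0.50 and -0.54) and without bird 3 (-0.45).

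For BBOF1 and IQUB, 16 genes of cilia and basal bodies were tested, with 5 higher in whole blood, 7 higher in PBMC and 4 not passing. DNAAF5, which helps to assemble dynein arms (-1.87 ± 0.19, adjusted p = 1.51e-05), and the transport protein gene IFT52 (-1.67 ± 0.15, adjusted p = 6.83e-06) had the most negative differences of the 16. The centriole gene POC1B (2.75 ± 0.21, adjusted p = 3.09e-06) and the dynein light chain DNAL1 (2.60 ± 0.21, adjusted p = 4.38e-06) had the largest differences toward PBMC. These were 1.24 and 1.23 with normexp, 1.47 and 1.40 in the authors' deposited values, and 1.30 for DNAL1 when its probes were averaged. The medians of the crystallin, ATP synthase and cilia lists, -0.21, -0.19 and 0.13, changed sign with another scaling or probe rule and give no direction.

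**Figure D4:**
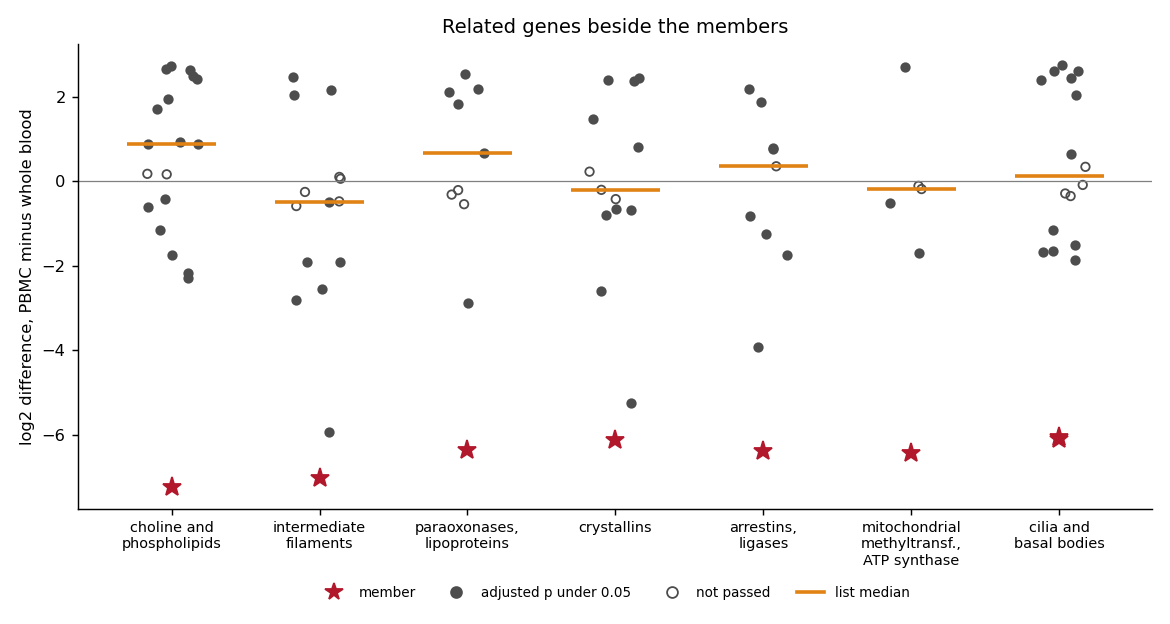
Log2 difference, PBMC minus whole blood (vertical axis), of the tested genes in 7 lists of related genes. Filled points passed the test, open points did not, orange lines are list medians and red stars the 8 genes. CRYGN lies at -5.25, and NEFL is drawn at its fitted -5.95 although no PBMC array measured it well above background.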

How the data were processed

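The deposited spot intensities are processed signals of Agilent Feature Extraction, background-subtracted and spatially detrended on each array, per the file headers (version 10.7.3.1; the submitters' processing notes name 10.7.1.1), with no normalization between arrays. The deposited table holds log2 values, which equal the log2 of the median spot signal minus 1 constant per array. Control spots (1319 per array) and outlier spots were left out. Log2 of the processed signal was scaled to the array's 75th percentile, and spots of a probe were averaged. Of several probes for a gene, the one brightest on average stands for it. Features well above background on all 4 arrays of a group were tested with limma 3.58.1 in R 4.3.3. The main fit had no term for the bird, so its standard errors and adjusted p-values do not use the pairing of samples. The fit was also run on simulated data without pairing of birds or a lower limit of signal, and no result here rests on that run. Alternatives were normexp on median signals (offset 50), the authors' values, quantile and cyclic loess scaling, other probe rules and filters, blocks, and arrays or birds left out. Probes were named through RefSeq genes of GRCg7b (17669 of 60539), the array being built on galGal3, so no coordinates are given. Named genes are the 8, the nearest profiles, the 60-fold neighbours, TFRC and HBAD as red cell references whatever their result, and the 2 most extreme called genes per list and direction, with KRT5, KRT8, KRT75, CRYBB2, CRYBA4, CRYBA2, CRYBA1 and ARRDC1 added after their values were seen. WNK4, HMGA2, CRABP1, SEMA3D and MATN3 were likewise named after their values were seen. Members and lists were chosen with earlier results of these data known. No sequence of a gene or probe is given. Deviations from group means correlated at 0.36 to 0.48 within birds and at most 0.043 between birds, and the design states that the same birds gave both samples, so the numbers pair the samples. The number of arrays limits the precision. All arrays lay on 1 slide, whose columns held 1 sample type each, so slide column and group cannot be told apart, and its rows held birds 2 and 4 or birds 1 and 3.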

Additional observations from a re-analysis of the deposited data

How the results depend on the processing

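The differences of the 8 genes kept their direction in all 18 probes and in every setting run, 22 or 23 per gene. That follows from how they were chosen, since differences of this size could hardly change sign. For all 8 the settings with a block and without a filter on dim probes gave the main value by design. Leaving out 1 array or 1 bird kept PHOSPHO1 between -7.44 and -7.11, KRT7 between -7.67 and -6.56, PON1 between -6.82 and -5.95, CRYBB3 between -6.29 and -5.97, ARRDC2 between -6.58 and -6.22, FAM173B between -6.58 and -6.23, BBOF1 between -6.37 and -5.65 and IQUB between -6.57 and -5.24.

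With the bird as a replicate block, the members' differences were the same and 27998 features differed, against 26923 without it; for the filament list 8 genes were higher in whole blood, against 6. Leaving out an array or bird gave 25233 to 26589. In the paraoxonase list, 1 gene was higher in whole blood, but 2 with normexp, in the authors' deposited values, with averaged probes and with detection required on all 8 arrays, and 3 with quantile or cyclic loess scaling (1 to 3 with an array or bird left out). Crystallins higher in whole blood were 5, but 7 with quantile and cyclic loess scaling and 6 in the authors' deposited values and in slide row 1 alone. The number was 4 with averaged probes and in slide row 2 alone (4 to 6 with an array or bird left out). Crystallins higher in PBMC were 5, but 6 with averaged probes and 4 with quantile scaling and in the authors' deposited values. They were 3 with cyclic loess and in slide row 2 alone (3 to 5 with an array or bird left out). Arrestin genes higher in PBMC were 4, but 2 with normexp, in the authors' deposited values and in row 2 alone. Of the ATP synthase genes, 2 were higher in whole blood, but 3 in the authors' deposited values. The number was 1 with quantile, cyclic loess, detection on all 8 arrays and in each slide row alone (1 to 2 left out). In PBMC 1 of them was higher, but 2 with quantile and cyclic loess. Cilia genes higher in PBMC were 7, but 9 with averaged probes and 4 with detection on all 8 arrays. Choline genes higher in whole blood were 6, but 4 with quantile and cyclic loess scaling and in slide row 2 alone. Of the other named genes that passed the test, only ATPIF1 changed direction in the settings run (0.13 with cyclic loess). The cause of these changes was not tested, except that the detection filter leaves fewer genes. The list medians that changed sign were crystallins (0.48 with averaged probes), ATP synthase (0.37 with cyclic loess) and cilia (-0.15 with cyclic loess). The authors' deposited values shifted the median of all features to -0.14. BBOF1 and IQUB had no value with detection on all 8 arrays, and their PBMC signal, close to background, limits their ratios.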
